A study of Mus musculus with 12 samples.

Results

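The regions described here were AGO2 peaks in 3′ UTRs that hold a seed match for miR-133. A peak was taken when its midpoint lay in a GENCODE M21 3′ UTR, outside coding sequence of the same strand, and when the peak, extended by 25 nt on each side, held on its own strand the 7-nt word complementary to positions 2 to 8 of the miR-133 family. There were 480 such peaks in the first WT library, 399 in the first KO library, 666 in the second WT library and 671 in the second KO library, or 2216 of 98929 3′ UTR peaks and of 713343 listed peaks in all. They held 823 different words in 773 genes.

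Chimeric eCLIP crosslinks AGO2, the protein that carries microRNAs, to the RNA it touches in a tissue, and the immunoprecipitated RNA is sequenced beside a size-matched input. The tissue was whole tibialis anterior (TA) muscle of male mice of 6 months, which was either wild type (WT, strain given as C57BL/6) or lacked miR-486 (miR-486-/-, strain given as FVB N/J, here mir-486 KO). There were 2 library sets. In each, 1 total AGO2 library was made from WT and 1 from mir-486 KO muscle, and both had their own input. The libraries further enriched for miR-486 were not analysed here. The knockout is a germline CRISPR deletion of the miR-486 hairpin within the gene Ank1, so no Cre line or transgene is involved. By the methods, both genotypes were on C57BL/6J after backcrossing, which differs from the strains in the labels, so strain and genotype cannot be told apart here. The methods and the design text count more muscles per genotype than there are total AGO2 libraries and mention duplicate runs, without saying how the sets relate to mice. The sets may therefore be duplicates of the same material, and the spread over libraries may be technical. In bulk muscle, fewer cells of a type and less RNA per cell cannot be told apart.

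miR-133a and miR-133b are microRNAs of striated muscle, made from transcripts that they share with miR-1 and miR-206. AGO2 loaded with a microRNA binds a 3′ UTR chiefly through pairing of the seed, bases 2 to 8 of the microRNA, and the bound mRNA is silenced or destabilised. The miR-133 family is known for restraining smooth-muscle and cytoskeletal genes in muscle. Its members share 1 seed, so a seed match does not say which of them was bound, nor that any of them was.

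The mature sequence of miR-133b-3p, from RefSeq with the GRCm38.p6 assembly, is shown first with its seed in capitals. Below it stand 6 of the sites that were past both enrichment thresholds in all 4 libraries, chosen from those with the highest mean folds, with the miR-133 word in capitals and 11 nt of GRCm38 sequence on each side, 5′ to 3′ on the strand of the mRNA.
miR-133b-3p: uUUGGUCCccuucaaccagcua
Pfkfb3: aaataaaatggGGACCAAtgtttttaacg
Sgk1: agggtttttatGGACCAAtgccccagttg
Dusp1: cggcacattcgGGACCAAtatattgtggg
Akap9: aatattcgatgGGACCAAtacatgcacag
Vamp2: tgtgttatgatGGACCAAtaattctgcca
Mcl1: cgaaagggttaGGACCAActgcaagttaa

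In 5 of these 6 sites the word is followed by T and in 1 by C, so that none has the A that completes an 8-nt site. The words lie at chr2:11472236-11472242 on the minus strand (Pfkfb3), chr10:21999572-21999578 on the plus strand (Sgk1), chr17:26506059-26506065 on the minus strand (Dusp1), chr5:4079784-4079790 on the plus strand (Akap9), chr11:69091566-69091572 on the plus strand (Vamp2) and chr3:95663094-95663100 on the plus strand (Mcl1). Each lies in the 3′ UTR of the gene named.

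The lists were checked for muscle by its markers. The 10 lists of cell type markers gave between 1266 and 2611 listed peaks per library for skeletal muscle, and between 45 and 105 for smooth muscle, at most 26 for liver, 16 for heart, 10 for macrophages, 8 each for adipocytes and B cells, 6 for blood and 1 for neurons. The lists differ in their number of genes, so these sums do not measure amounts of each tissue. Ttn alone gave 664 of the 1266 peaks in WT of set 1 and 1464 of the 2611 in KO of set 2. Slow-fibre markers had 83 peaks in WT and 71 in KO of set 1, against 7 and 5 in set 2, and liver markers had 10 and 26 peaks in set 1 against 0 in both libraries of set 2. The sets therefore differ in these markers, and their part in the results was not tested. Set 2 also held more and wider peaks. Depth is unknown, because read counts are not part of the lists.

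The first question was how often the miR-133 word, GGACCAA, occurs in 3′ UTR peaks. It was held by 2.69% of the 17851 3′ UTR peaks of WT in set 1 (95% Wilson interval 2.46 to 2.94), 1.82% of 21914 in KO of set 1 (1.65 to 2.01), 2.23% of 29853 in WT of set 2 (2.07 to 2.40) and 2.29% of 29311 in KO of set 2 (2.12 to 2.47). The intervals cover counting error only, and peaks of a library are not replicates. The same 7 bases can be arranged in 209 other ways, which keeps base composition equal. Their median share was 0.269%, 0.237%, 0.335% and 0.341% in the same order. No other arrangement was as frequent in either library of set 1, while 9 were in WT and 5 in KO of set 2. The log2 ratio of the share to the median of the others was 2.94 ± 0.27 (SD, n = 4 libraries). Much of this ratio rests on arrangements that contain CG, a step that is rare in mouse DNA: against the 99 arrangements without it the ratio was 0.89 ± 0.32.

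Among peaks enriched over input, those whose deposited log2 fold and −log10 p both reached 3, the word stood further apart. It was held by 79 of 1051 enriched 3′ UTR peaks in WT of set 1 (7.52%), 26 of 360 in KO of set 1 (7.22%), 107 of 1057 in WT of set 2 (10.1%) and 107 of 1036 in KO of set 2 (10.3%). The most frequent of the 209 other arrangements reached 3.33%, 3.33%, 5.39% and 4.05%. In none of the 4 libraries was another arrangement as frequent.

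**Figure D1:**
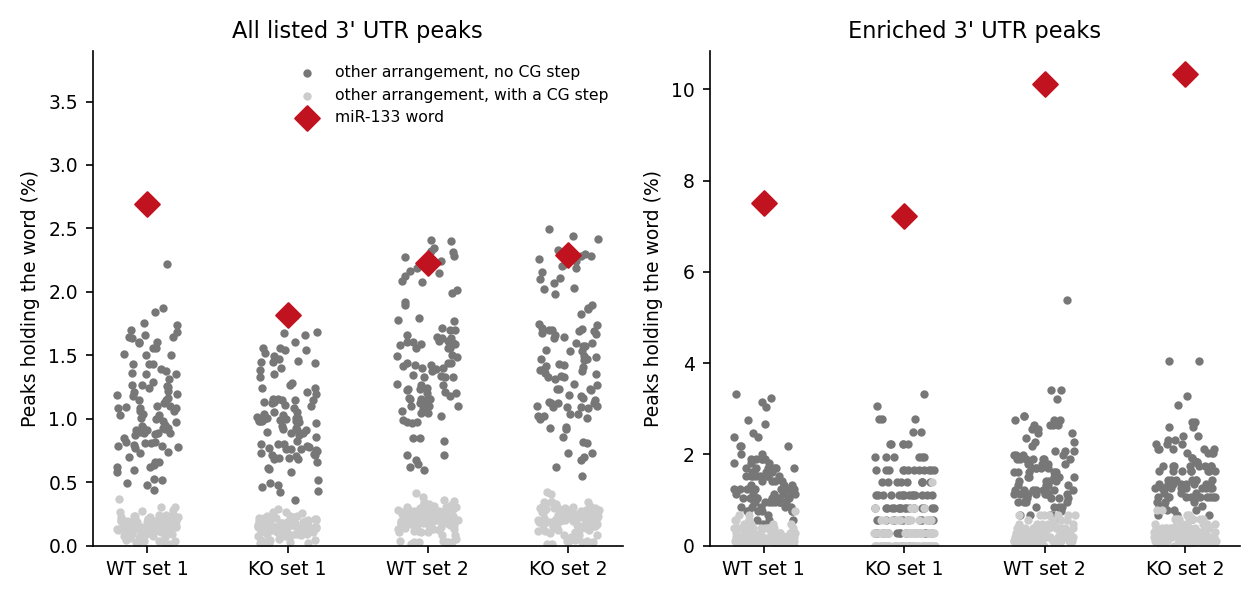
Share of 3′ UTR peaks (%, vertical axis) that hold the miR-133 word (red diamonds) and each of the 209 other arrangements of its bases (grey points, light grey with a CG step) in each library, over all listed 3′ UTR peaks (left) and enriched ones (right). On the left the diamonds lie among the highest points in set 2; on the right, at 7.22% to 10.3%, they lie above every other point.

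The word was also counted against whole 3′ UTRs, a measure chosen after the data were seen. In the 3′ UTRs of genes with a 3′ UTR peak there were between 0.0584 and 0.0593 miR-133 words per kb. In the extended peaks there were 0.218 and 0.153 per kb in WT and KO of set 1, and 0.144 and 0.153 in set 2. The density was therefore 3.68, 2.61, 2.47 and 2.60 times that of the whole 3′ UTRs, where the median of the other arrangements was 1.02 to 1.15 times. At most 1 other arrangement was as high in any library. In enriched peaks the ratios were 6.96, 7.26, 8.71 and 9.0, and again at most 1 other arrangement was as high.

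Of the 917, 961, 1168 and 1157 miR-133 words in those 3′ UTRs, in the same order of libraries, 50.7%, 39.9%, 53.6% and 54.6% lay in a member. So in KO of set 1 more words lay outside members than in them (578 against 383), and in the other 3 libraries the numbers were closer. Members were counted here with their extension, and some of their words lay in the extension and not in the listed peak itself.

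The folds of the members were the next question. Median log2 fold over input was 1.87 for members and 0.87 for other 3′ UTR peaks in WT of set 1. It was 1.5 and 0.61 in KO of set 1. In set 2 it was 1.80 and 0.57 in WT, and 1.79 and 0.56 in KO. The difference was 1.09 ± 0.17 (SD, n = 4), above 0 in 4 of 4 libraries, with an exact two-sided sign-flip p of 0.125, the smallest that 4 libraries can give. Members were called enriched in 16.5% of cases in WT of set 1, where 5.89% of all 3′ UTR peaks were. The shares were 6.52% against 1.64% in KO of set 1, 16.1% against 3.54% in WT of set 2, and 15.9% against 3.53% in KO of set 2. Against the other 3′ UTR peaks the share differed by 10.3 ± 3.69 percentage points (exact p = 0.125, n = 4). The KO library of set 1 was the lowest on both measures.

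Members were wider than other 3′ UTR peaks, with median widths of 105, 95, 153.5 and 154 nt against 74, 69, 102 and 97 nt in the same order of libraries, and a wider window holds more words of any kind. Compared within 5 classes of peak width, the fold difference was 0.80 ± 0.30 and the difference in enriched share 7.97 ± 3.81 points, each above 0 in 4 of 4 libraries (exact p = 0.125, n = 4). Median GC content was 47.5% to 48.3% in members and 46.2% to 46.7% in the others. Within genes that had a member, the fold difference from their other 3′ UTR peaks was 0.61 ± 0.16 (n = 4).

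No other arrangement of the bases held by at least 50 peaks had a median fold as high as the miR-133 word. In WT of set 1 the highest other median was 1.68, over 103 arrangements. In KO of set 1 it was 1.12 over 108, in WT of set 2 it was 1.21 over 178, and in KO of set 2 it was 1.22 over 177. So the arrangements that were as frequent as the miR-133 word in set 2 had lower folds.

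**Figure D2:**
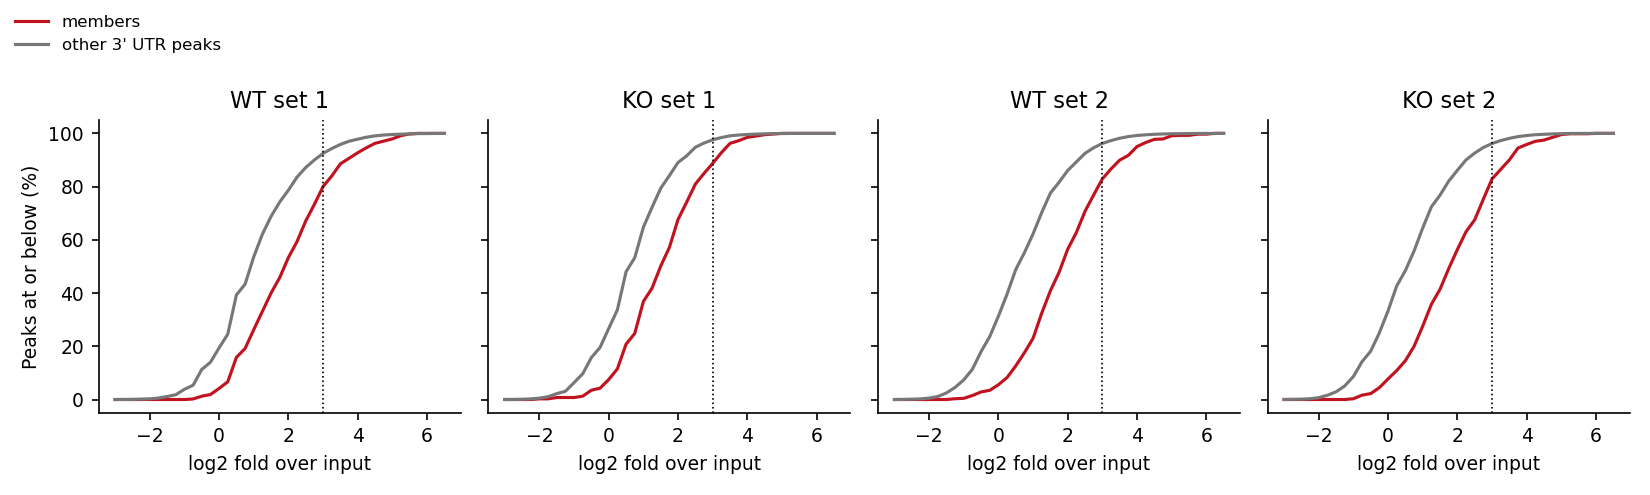
Cumulative share of peaks (%, vertical axis) at or below each log2 fold over input (horizontal axis) for members (red) and other 3′ UTR peaks (grey), 1 panel per library, with the threshold of 3 dotted. The red curve lies to the right in all 4 panels, with median differences of 1.0, 0.89, 1.23 and 1.23.

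Seed words of 4 other microRNA families of muscle or of most tissues were searched the same way: ACATTCC for miR-206, whose seed is also that of miR-1, CTACCTC for let-7, TGGTGCT for miR-29 and TGTTTAC for miR-30. In WT of set 2 these were held by 3.34%, 2.31%, 3.38% and 3.51% of 3′ UTR peaks. The miR-133 word was rarer than those of miR-206, miR-29 and miR-30 in 4 of 4 libraries, but its peaks had higher folds than those of let-7, miR-29 and miR-30. The difference in median log2 fold was 0.48 ± 0.21 from let-7, 0.49 ± 0.20 from miR-29 and 0.53 ± 0.11 from miR-30, each in 4 of 4 libraries. Peaks with the miR-206 word had higher folds still, and the difference, miR-133 minus miR-206, was −0.23 ± 0.09, below 0 in 4 of 4. Each of these 4 fold comparisons had an exact p of 0.125 and 0.136 after Benjamini-Hochberg adjustment over 12 comparisons of fold, enriched share and frequency. The enriched share of members minus that of miR-206 peaks was −4.41 ± 3.00 points. Minus that of let-7, miR-29 and miR-30 peaks it was 6.00, 6.92 and 6.61 points on average.

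Position within the peak was described beside the other arrangements. The miR-133 word lay wholly inside the listed peak, rather than in the added 25 nt, in 86.7% of 487 occurrences in WT of set 1, 72.3% of 405 in KO of set 1, 86.5% of 675 in WT of set 2 and 85.6% of 682 in KO of set 2. For the other arrangements the shares were 62.5%, 59.6%, 70.4% and 69.95%. Within 20 nt of the peak centre lay 54.0%, 37.5%, 32.9% and 35.3% of miR-133 words in the same order of libraries. Of the other words 33.1%, 34.8%, 26.2% and 27.5% did, so the shares were close in KO of set 1. The median position of the miR-133 word was between 8 nt upstream and 1.5 nt downstream of the centre.

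**Figure D3:**
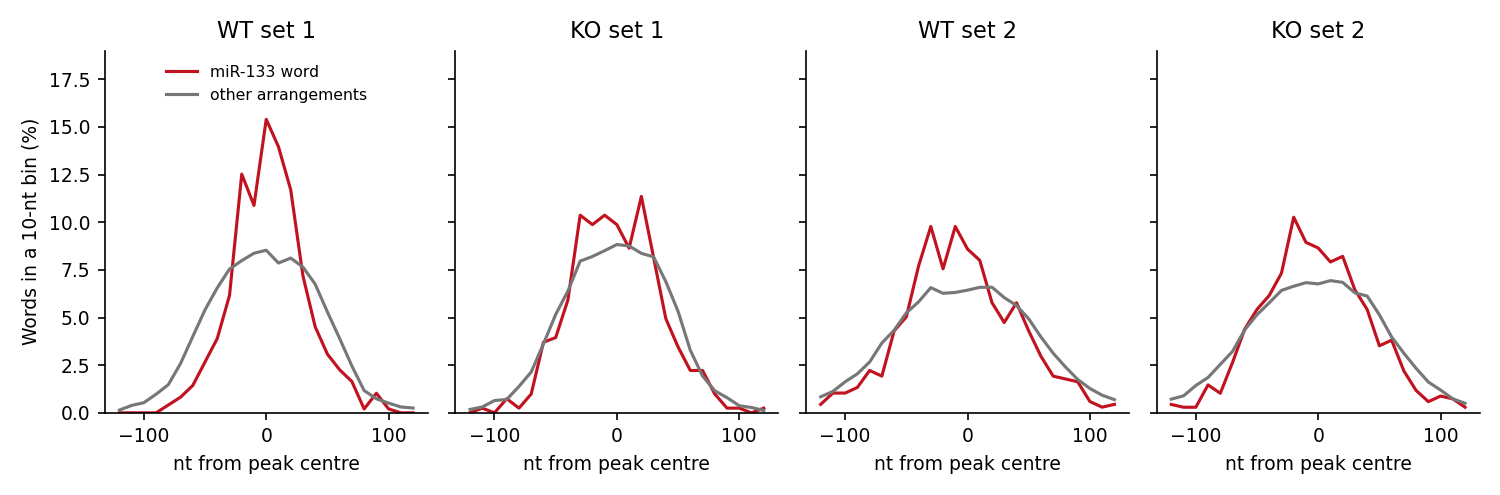
Share of words (%, vertical axis) in 10-nt bins of distance from the peak centre (nt, horizontal axis; negative is upstream) for the miR-133 word (red) and the other arrangements together (grey) in all listed 3′ UTR peaks, 1 panel per library. The red curve is narrower, most so in WT of set 1, where 54.0% of the words lie within 20 nt of the centre against 33.1% of the others. In KO of set 1 the shares are close, at 37.5% and 34.8%.

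The bases beside the word were not part of the rule. An A after the word, which faces position 1 of the microRNA and makes an 8-nt site, was found at 38.9%, 38.9%, 38.3% and 38.1% of words in members. Of the words elsewhere in the same 3′ UTRs, 31.4%, 31.5%, 28.6% and 29.3% had it. The difference was 8.37 ± 1.11 points, above 0 in 4 of 4 libraries (exact p = 0.125, n = 4, adjusted 0.25 over 4 comparisons). The base before the word was the G that would pair with position 9 in 39.1%, 37.3%, 36.3% and 36.2% of words in members and in 25%, 26.5%, 25.3% and 25.1% elsewhere. That difference was 11.8 ± 1.58 points, also in 4 of 4 (exact p = 0.125, n = 4), and was looked for after the data were seen. The share of A and T in the 30 nt on each side did not separate the 2 kinds of word, with medians of 51.7% to 55.0% in members and 51.7% to 53.3% elsewhere.

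Members with an 8-nt site had higher folds than members with the 7-nt word alone. The medians were 1.99 and 1.78 in WT of set 1, 1.75 and 1.38 in KO of set 1, 2.04 and 1.67 in WT of set 2, and 2.03 and 1.61 in KO of set 2. The difference was 0.34 ± 0.09 in 4 of 4 libraries (exact p = 0.125, n = 4, adjusted 0.25 over 4 comparisons). Counted by word and by the base after it, A had the highest median except in WT of set 1, where it was 1.98 against 2.04 for C. The enriched share was higher for 8-nt sites in 3 of 4 libraries, at 18.8%, 22.4% and 21.3% against 15.0%, 12.1% and 12.7%, and was 5.92% against 6.88% in KO of set 1. By word, those followed by T were enriched more often than those followed by A in KO of set 1 (13.8% against 5.96%). In WT of set 1 the shares were 18.2% and 18.7%, and in both libraries of set 2 the share was lower after T. Of the 823 words, 35.97% had the A; of the 175 that were enriched in at least 1 library, 49.1% had it. Sites whose preceding base pairs with position 9 had median folds higher by 0.25 ± 0.10 (4 of 4 libraries, exact p = 0.125, n = 4).

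The 823 words were followed across libraries, giving each word the fold of its highest peak. In all, 286 words were in a member of all 4 libraries, 167 of 3, 149 of 2 and 221 of 1. The median of the mean log2 fold was 2.24 for the words found in all 4 and 1.06 for those found in 1. Of the words found once, 89 came from WT and 84 from KO of set 2, and 24 from each library of set 1. Across words, which share a library's depth and are not replicates, Spearman's correlation of the folds was 0.78 over 529 words between WT and KO of set 2, 0.44 over 305 between WT and KO of set 1, and 0.45 over 415 between the WT libraries.

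A member was enriched at 175 words in 168 genes, of which 93 were enriched in 1 library, 44 in 2, 28 in 3 and 10 in all 4. Without set 2 there were 86 such words, and without set 1 there were 140. Of the 79 enriched members of WT in set 1, 60.8% overlapped an enriched peak of WT in set 2. In the other direction the share was 42.1% of 107. Other enriched 3′ UTR peaks overlapped in 36.6% and 41.4%. Between WT and KO of set 2 the shares were 66.4% and 71.0% of members and 54.9% and 56.5% of other peaks. Members did not overlap more often in every pair of libraries. Of the enriched members of KO in set 2, 39.3% overlapped an enriched peak of WT in set 1, against 46.6% of other peaks, and 21.5% one of KO in set 1, against 22.6%. Of those of WT in set 2, 19.6% overlapped one of KO in set 1, against 20.3%.

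Of all words found in the 4 libraries, the site in Pfkfb3 had the highest mean. Pfkfb3 encodes an enzyme that makes and removes an activator of glycolysis. Its log2 fold over input was 5.14 in WT and 4.51 in KO of set 1, and 6.01 in WT and 4.28 in KO of set 2, with a mean of 4.98 ± 0.78 (SD, n = 4). WT was above KO in both sets over input, but in differently placed peaks. The word lay 67.5 and 19.5 nt upstream of the peak centre in WT and KO of set 1. In set 2 it lay 23 nt downstream in WT and 67 nt upstream in KO. In the authors' direct lists, however, the fold was −1.14 for WT over KO in set 1 and 1.5 in set 2, so that its direction differed between the sets.

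Signalling genes came next. In Sgk1, a kinase induced by serum and glucocorticoids, the folds were 5.37, 4.77, 4.11 and 4.98 (WT and KO of set 1, then WT and KO of set 2, the order used from here on). In Dusp1, a phosphatase that inactivates MAP kinases, they were 5.19, 3.27, 4.85 and 4.84, with the KO library of set 1 below the rest. In Akap9, a scaffold that anchors protein kinase A, they were 4.95, 4.10, 3.82 and 5.07.
These 3 sites were enriched in every library, and WT and KO values overlapped for Sgk1 and Akap9, while for Dusp1 the lower WT and the higher KO value differed by less than 0.1.

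Vamp2, a vesicle SNARE protein, had folds of 4.79, 4.26, 3.80 and 4.15. Mcl1, an anti-apoptotic BCL2 family member, had folds of 4.59, 3.11, 3.89 and 3.99. WT and KO overlapped for both. Further sites enriched in all 4 libraries were in Phip (mean 3.37 ± 0.38), Rb1cc1, which starts autophagosome formation (3.35 ± 0.25), and Dgcr2 (3.34 ± 0.15).

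Other sites had lower means. Srxn1, the enzyme that restores oxidised peroxiredoxins, had 3.46, 1.91, 5.51 and 4.79. Slc25a23, a mitochondrial carrier of ATP-Mg and phosphate, had 2.63, 1.38, 6.04 and 4.88, the widest range of the 20 sites with the highest means. Tomm20, a receptor for protein import into mitochondria, had 4.55, 3.12, 3.42 and 3.43. The KO library of set 1 gave the lowest fold at 11 of the 20 sites.
Further sites among the 20 were in genes of protein modification, with a mean of 3.79 ± 1.30 in Trim56 and 3.62 ± 1.18 in Cbll1, both ubiquitin ligases, and 3.62 ± 1.28 in Uba2, part of the SUMO-activating enzyme. Chromatin and histone genes gave 3.69 ± 0.72 in Ash1l, a histone methyltransferase, and 3.65 ± 1.19 in Slbp, which binds histone mRNA. The last 5 were Eml3, a microtubule-binding protein (3.83 ± 1.42), Gxylt1, a xylosyltransferase that acts on Notch (3.78 ± 1.61), Fn3krp, a kinase that removes sugar adducts from proteins (3.73 ± 0.85), Leng1 (3.71 ± 1.10) and Tmem170b (3.71 ± 1.34). Of the 20 sites, 17 were enriched in WT and 10 in KO of set 1, and 19 in each library of set 2. The site just outside the 20, in Hs2st1, had a mean of 3.58, beside 3.62 for the last one inside.

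**Figure D4:**
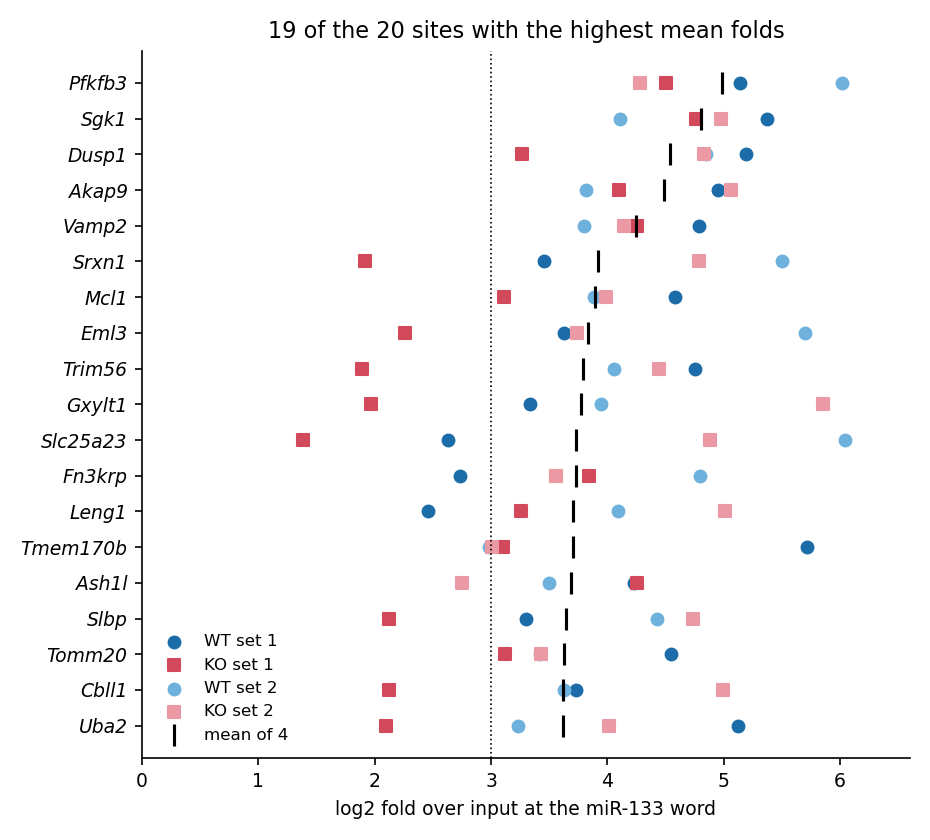
log2 fold over input (horizontal axis) at 19 of the 20 miR-133 words with the highest mean among those in a member of all 4 libraries, 1 row per gene, with circles for WT, squares for KO, dark colours for set 1, light for set 2, a bar for the mean and the threshold of 3 dotted. Each fold is that of the highest peak holding the word, whose centre can lie away from the word. The means run from 3.62 to 4.98, and the dark square, KO of set 1, is the leftmost mark in 11 rows.

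Genes known as miR-133 targets were taken from a list of 30, chosen from general knowledge of the field and with the seed word in view. Of the 26 with a 3′ UTR peak, 9 had a member (34.6%) and 4 an enriched one, whereas 773 of 10360 genes with a 3′ UTR peak had a member (7.46%) and 168 an enriched one (1.62%). A gene enters such a list partly because its 3′ UTR holds the word, so the counts are a description. Srf, Hdac4, Cdc42 and Rhoa had 3′ UTR peaks in all 4 libraries but none with the word.

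Tagln2, which encodes the actin-binding protein transgelin-2, had the highest mean of the list. Its folds were 2.99, 3.28, 3.49 and 3.22, with a mean of 3.25 ± 0.20, and its peak was enriched in 3 of 4 libraries. Its 2 words lie 18 nt apart in the same peaks, at chr1:172506970-172506994 on the plus strand, and the second is followed by A. Nelfa, a subunit of the complex that pauses RNA polymerase II, had 1.81, 2.61, 4.06 and 3.72, higher in both libraries of set 2. Ptbp2, a splicing repressor, had 3.00, 1.94, 3.45 and 2.80, and was enriched in both WT libraries. Fgfr1, a fibroblast growth factor receptor, had 3.09, 1.48, 1.35 and 2.18 and was enriched in WT of set 1.

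The other 5 listed targets had no enriched member. Lasp1, an actin-binding protein, had 2.33, 1.97, 1.85 and 2.45 at the word that was found in all libraries. At its other word it had −0.39 in WT of set 1, 2.26 in KO of set 1 and 1.13 in KO of set 2, with no member in WT of set 2. Msn, or moesin, which links actin to the membrane, had 2.04, 1.83, 1.04 and 1.70. Ppp2ca, the catalytic subunit of a protein phosphatase, had 1.75, 1.71, 1.04 and 0.81. Ccnd2, a D-type cyclin, had a member in WT of set 1 alone, with a log2 fold of −0.13, and Prdm16, a regulator of brown fat identity, had one in WT of set 2 alone, at 1.28.

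Among the other gene lists, 6 of 31 genes of actin regulation with a 3′ UTR peak had a member (19.4%), of which Tagln2 was enriched. Over all 10360 genes with a 3′ UTR peak, 7.46% had a member and 1.62% an enriched one. Tagln2, Lasp1 and Msn were also on the list of known targets, chosen with the seed word in view. Prdm16, named below, was on it too, so the lists are not independent. Pfn2, a profilin that binds actin monomers, had 2.35, 2.89, 1.93 and 2.21, all below the threshold of 3. Of 39 sarcomere and Z-disc genes with a 3′ UTR peak, 1 had a member, Xirp1, with folds of 0.46 in WT of set 1, −0.11 in WT of set 2 and 0.57 in KO of set 2. Of 20 ion channel and calcium handling genes, 0 had a member. Of 30 muscle transcription and chromatin regulators, 2 had one, Nfatc1 and Prdm16, and neither was enriched.
Of the 10 genes of the AGO and microRNA machinery, 2 had an enriched member, in set 2 alone, beside 1.62% of all genes with a 3′ UTR peak. Ago1, an Argonaute protein, had folds of −0.13 in WT of set 1, 3.15 in WT of set 2 and 3.37 in KO of set 2. Dicer1, which cuts microRNA precursors, had a member in KO of set 2 alone, at 3.62. The lists are small, and nothing is read from these shares beyond the counts.

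Some 3′ UTRs held several words. Pairs of words that fit within 30 nt are shown from the first base of one word to the last base of the other, with both words in capitals.
Tagln2: GGACCAAcaaaaaccctgGGACCAA
Gabpb2: GGACCAAaggaccaGGACCAA
Ppp1r12c: GGACCAAgaaggaagcaaGGACCAA
Rnf44: GGACCAAccgGGACCAA

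Gabpb2, a subunit of the GA-binding transcription factor, carried its pair at chr3:95188467-95188487 on the minus strand, and a further word lay at chr3:95183143-95183149. The peak over the pair had folds of 3.40, 2.26, 3.55 and 4.04, while the lone word had a member in set 2 only, at 1.17 and 2.70. Ppp1r12c, a regulatory subunit of myosin phosphatase, had 2.83, 2.21, 2.55 and 2.71 at chr7:4481799-4481823 on the minus strand, below 3 in every library. Rnf44 had 1.87, 0.02, 2.11 and 1.16 at chr13:54680823-54680839 on the minus strand. So pairs 10 to 18 nt apart were enriched in 2 of these 4 genes, where 168 of all 773 genes with a member had an enriched one. Among pairs further apart, one of 55 nt was enriched in 2 libraries. The pairs are few, and nothing is read from them about spacing. Besides Gabpb2, 2 genes had 3 words in members. In Zbtb20, a zinc-finger repressor, the folds ran from 0.70 to 1.81, and in Mfsd12, a lysosomal transporter, from 1.68 to 2.70, and no word of either was enriched.

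Few members also held the miR-206 word: 12 of 480, 10 of 399, 16 of 666 and 12 of 671 peaks, at 24 of the 823 words. Of all 3′ UTR peaks, 4.41%, 2.92%, 3.34% and 3.32% held it. The median log2 fold of members with both words was 3.38, 2.57, 2.94 and 2.41, against 1.87, 1.48, 1.80 and 1.76 for members without the miR-206 word. The difference was 1.10 ± 0.35, above 0 in 4 of 4 libraries (exact p = 0.125, n = 4). These peaks were wider, at a median of 157 to 218 nt against 93 to 153 nt, and the part of width was not tested. In 7 of the 24 the words lay within 50 nt of each other.

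Sites with both words that were enriched in at least 2 libraries lay in Vamp2, Eml3, Knop1 (mean 3.34 ± 0.57), Rarb, a retinoic acid receptor (3.32 ± 1.07), Mecom, a zinc-finger transcription factor (3.06 ± 1.25), and Wdr6 (2.83 ± 1.28). The distance between the start of the words was 34 nt in Vamp2, 42 nt in Knop1, 47 nt in Eml3, 57 nt in Mecom, 95 nt in Rarb and 110 nt in Wdr6. Members also held a miR-29 word at 28 sites, a let-7 word at 20 and a miR-30 word at 17.

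For comparison outside 3′ UTRs, the miR-133 word was searched in the same way in peaks whose midpoint lay in coding sequence, a comparison added after the data were seen. It was held by 1037 coding peaks in WT and 779 in KO of set 1, and by 1532 in WT and 1563 in KO of set 2. Their share of coding peaks was 2.17%, 1.83%, 1.56% and 1.54%, and 11, 21, 43 and 47 of the 209 other arrangements had a share as high. The median log2 fold was 1.68 with the word and 0.68 without it in WT of set 1, 0.80 and 0.12 in KO of set 1, 1.47 and 0.21 in WT of set 2, and 1.38 and 0.15 in KO of set 2. The difference was 1.04 ± 0.27, above 0 in 4 of 4 libraries (exact p = 0.125, n = 4). Coding peaks with the word were enriched in 12.2% of cases in WT of set 1, where 3.17% of all coding peaks were, in 2.57% against 0.264% in KO of set 1, in 8.36% against 1.03% in WT of set 2 and in 8.19% against 0.946% in KO of set 2. Among the enriched coding peaks 8.30%, 17.9%, 12.6% and 13.3% held the word, and no other arrangement had a share as high in any library. Widths were not compared in coding peaks.

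WT and mir-486 KO were compared last, in the authors' direct lists, which set the WT immunoprecipitated library over the KO one at WT peaks and the KO over the WT one at KO peaks. Both lists of a set use the same 2 libraries. An exact two-sided permutation of 2 against 2 libraries cannot give a p below 0.333, and the genotypes were therefore not tested. Past a log2 fold of 3 and a −log10 p of 3 there were 2 of 479 members for WT over KO in set 1, where 0.421% of 3′ UTR peaks passed. For KO over WT in set 1 there were 0 of 398 (0.228% of 3′ UTR peaks). In set 2 there was 1 of 662 for WT over KO (0.0269%) and 2 of 668 for KO over WT (0.0137%).

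These 5 members lay in different genes. Mt1, a metallothionein that binds zinc and copper, had the largest direct fold, 5.54 for WT over KO in set 1 with a −log10 p of 66.9, and 0.76 in set 2. Its word lies at chr8:94180232-94180238 on the plus strand, and its log2 fold over input was 3.36 in WT of set 1, 1.90 in WT of set 2 and 1.89 in KO of set 2, with no member in KO of set 1. Tmem132a had 3.86 for WT over KO in set 1 and 0.12 in set 2, and its peak was not enriched over input, at 0.57. Cyp26b1, which degrades retinoic acid, had 3.82 for WT over KO in set 2.
Foxl2, a forkhead transcription factor, had 4.34 and Nnat, or neuronatin, 3.20 for KO over WT in set 2. Cyp26b1, Foxl2 and Nnat each had a member in 1 library. None of the 5 passed in both sets.

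At a log2 fold of at least 1, with the same p, 49 members passed for WT over KO in set 1 (10.2%, beside 4.45% of all 3′ UTR peaks) and 3 for KO over WT (0.75%, beside 2.08%). In set 2 there were 7 (1.06%, beside 0.988%) and 2 (0.30%, beside 0.0856%). For WT over KO in set 1 the share was 9.66% for miR-206, 8.09% for let-7, 7.04% for miR-29 and 9.10% for miR-30. Peaks with none of the 5 seed words had 3.62%. For KO over WT in set 1 the shares were 1.25%, 1.06%, 1.79% and 0.67% in the same order, against 2.20%. So the larger share for WT in set 1 was common to the seed words compared, and for members it had no counterpart in set 2.

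The median direct log2 fold of members was 0.65 for WT over KO in set 1, against 0.54 for other 3′ UTR peaks, and −0.42 for KO over WT, against 0.43. In set 2 the medians were 0.15 against 0.31 and −0.12 against −0.12. The same side-by-side values for other seed words in KO over WT of set 1 were −0.42 for miR-206, −0.34 for let-7 and −0.16 for both miR-29 and miR-30, against 0.53 for peaks with none of the 5 words. So in that list the members lay with the other seed words and apart from the peaks without one. For WT over KO of set 1 the medians were 0.64 for miR-206, 0.78 for let-7, 0.66 for miR-29 and 0.69 for miR-30, against 0.48 for peaks with none.

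**Figure D5:**
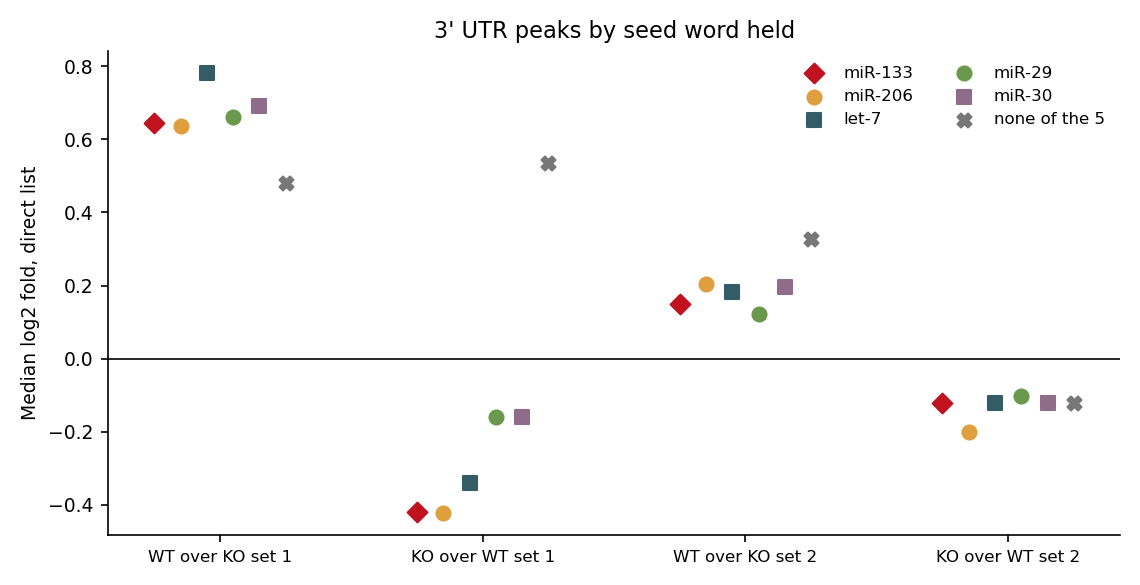
Median log2 fold (vertical axis) of 3′ UTR peaks in each of the 4 direct lists (horizontal axis), by the seed word held, with red diamonds for miR-133 and grey crosses for peaks with none of the 5 words. In the KO over WT list of set 1 the miR-133 median is −0.42 and that of peaks with none is 0.53, while in set 2 all medians lie between −0.20 and 0.33.

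Among the 20 sites with the highest folds, the direct fold for WT over KO was above 0 at 18 in set 1 and at 12 in set 2. Over all features it was above 0 at 79.1% of members and 71.9% of other 3′ UTR peaks in set 1, and at 63.6% and 73.1% in set 2, so nothing is read from these counts about the 20 sites. At Sgk1 it was 1.88 in set 1 and −0.01 in set 2, at Vamp2 1.63 and −0.08, and at Mcl1 1.43 and 0.03. At Dusp1 it was 0.78 and 0.14 and at Akap9 0.59 and −0.08. At these 5 sites the values of set 1 were above those of set 2, whereas at Pfkfb3 the value of set 1 was below, −1.14 against 1.5. Medians were also higher in set 1 for members (0.65 against 0.15) and for other 3′ UTR peaks (0.54 against 0.31).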

How the data were processed

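The authors trimmed reads with cutadapt, aligned them to GRCm38 with STAR, used CLIPper to find peaks library by library and collapsed overlapping peaks, without pooling replicates. UMI-tools is also named in the submitters' processing notes. The deposited values are a log2 fold of scaled reads between 2 libraries for each peak, and beside it the −log10 of the authors' p-value, capped at 400. Both were used as deposited. Peak midpoints were classed by GENCODE M21, an earlier release than the authors', with coding sequence before UTR. Words were searched with Python 3 scripts (numpy, pandas), tested on simulated windows in which 100% of planted words were found. Coordinates are GRCm38 and 1-based. Differences over the 4 libraries were tested by exact two-sided sign flips. Wilson intervals are 95%. Depth is unknown, and repeated fold values show peaks with few reads, since between 4.05% and 12.7% of the peaks in a class shared its most common fold.

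The named sites were the 20 with the highest mean fold among words in a member of all 4 libraries, listed targets with a member, members past both thresholds in a direct list, genes with 3 or more words, and enriched members with a miR-206 word. Other names (the sites enriched in all 4 libraries that are not among the 20, the word pairs, and members of gene lists) were chosen after their values were seen. The members, lists and tests were chosen with earlier results of these data known. Alternatives were other extensions, words, region rules, thresholds and comparison peaks, and each set alone. Of the named sites, 1 is not reported here. Seed words of microRNAs absent from the reference table were not compared.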

Additional observations from a re-analysis of the deposited data

Results flagged for a closer look

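In 12 quantities measured once per library, 3 had 1 library far from the other 3; chance alone flags about 1 group in 20. The share of members that were enriched was 6.52% in KO of set 1, against 15.9% to 16.5% in the other libraries. The share of member words inside the listed peak was 72.3% in the same library, against 85.6% to 86.7%. The density of the word in peaks over that in whole 3′ UTRs was 3.68 in WT of set 1, against 2.47 to 2.61.

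The median direct fold of members for WT over KO, less that of other 3′ UTR peaks, was 0.11 in set 1 and −0.16 in set 2, a gap of 0.27 between 2 values of opposite sign. Each set has 1 library pair, and the difference was not tested.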

How the results depend on the processing

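No paired analysis was possible because 2 sets, taken as pairs, cannot give an exact p below 0.5. The within-set comparisons are the direct folds, given for each set in the report. The fold difference of members stayed above 0 in all 12 alternatives (0.61 to 1.30) and the enriched share difference in all 16 (3.43 to 20.4 points). The number of words in members was 2290 with the 6-nt word and 296 with the 8-nt site, which are a shorter and a longer word by construction, against 823.

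The log2 ratio of the word's share to that of other arrangements, 2.94, changed with the arrangements it was set against and with the word. It was 0.89 without those that contain CG, and 0.89 again when words of the other families were left out, since none of those is such an arrangement. It was 0.71 for the 6-nt word, 3.42 for the 8-nt site, 3.26 with no extension, 2.57 with 3′ UTR before coding sequence, and, as alternatives chosen after seeing the data, 4.25 in enriched peaks alone and 1.38 for density over whole 3′ UTRs. It stayed above 0 throughout, and the cause of the other moves was not tested.

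Enriched words numbered 175, and 325 at a log2 fold of 1 and 70 at 4. Leaving out a set gave 86 to 140. Members past the thresholds for WT over KO numbered 3, and 56 at a log2 fold of 1, 1 at a log2 fold of 4, 1 when enrichment over input was also asked, and 1 to 2 when a set was left out. For KO over WT they numbered 2, and 5 at a log2 fold of 1, 1 at a log2 fold of 4, 1 at a −log10 p of 5, 1 with enrichment over input, and 0 to 2 when a set was left out. Counts this small do not bear a comparison. The files give no reads, so how depth limits a single site is unknown.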
